A study of Homo sapiens with 12 samples.

Results

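The genes of cholesterol and fatty acid synthesis were followed in HT-29, a human colorectal adenocarcinoma line that grows as an epithelium and carries mutant APC, in which the WNT pathway was pushed further by 2 routes. The set holds 29 genes, chosen by symbol as a pathway list, out of 25528 gene rows in the deposited expression table. It comprises 7 genes of the acetoacetyl-CoA and mevalonate steps, 11 of the squalene and sterol steps, 4 regulators or carriers of sterol, and 7 of fatty acid synthesis and desaturation. The 12 RNA-seq libraries fall into 4 groups of 3. In the overexpression arm, cells were infected with a lentivirus carrying the open reading frame of GFP (the control) or of CTNNB1, which encodes beta-catenin, and were collected 2 days after infection. In the knockdown arm, cells carried an inducible lentiviral hairpin, shNT1 (labelled as the control) or shAPC, and were collected 1 day after addition of 2 µM doxycycline. All 4 groups are the same line, so the mutant APC of HT-29 stands in the controls as well, and the labels name 1 hairpin for each hairpin group. Vector type, day of collection and drug all set the arms apart, and each treated group was compared with its own control. The labels number the libraries 1 to 3 and do not say that they come from separate cultures, so p-values measure the spread between these libraries, which may be technical.

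Cholesterol is built from acetyl-CoA by way of mevalonate, farnesyl diphosphate and squalene, while fatty acids are built from the same acetyl-CoA through malonyl-CoA and are then elongated and desaturated. Most genes of both routes are targets of the sterol regulatory element binding proteins, transcription factors encoded by SREBF1 and SREBF2, which are held in the endoplasmic reticulum by SCAP and the INSIG proteins when sterol is plentiful and released when it runs short. Liver X receptors act in the opposite situation, switching on genes for sterol efflux and also SREBF1.

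Promoter sequences are shown first, for SCD, ELOVL6, HMGCS1 and TM7SF2, which passed a test, and for SREBF2, the regulator whose promoter holds the sterol regulatory element searched for; these 5 were chosen after their values were seen, because no member that passed the test in either comparison held that element. RefSeq promoter windows (GRCh38.p14), reaching from 250 bases before to 50 bases after a listed transcript start, matched 25 of the 29 members in 34 windows; ACAT2, SQLE, FASN and FDFT1 are named only. Exact letters were searched on both strands: the sterol regulatory element as TCACNCCAC, the NF-Y box as CCAAT, the E-box as CACGTG and the TCF/LEF core as CTTTGAT. The NF-Y box, bound by a factor that often works beside the sterol regulatory element binding proteins, stood in 24 of the 34 windows (70.6%), against 34.6% of all 35116 windows of the same length. Of the 25 matched members, 20 had it in at least 1 window, against 39.7% of all 27305 gene symbols. The sterol regulatory element in these letters stood in 1 member window (2.94%) against 1.13% of all windows, the E-box in 11.8% (INSIG1, LSS and SC5D) against 7.26%, and the TCF/LEF core in 0 member windows against 2.62%. The 250 bases before the start follow, 5′ to 3′ on the gene's strand, with NF-Y boxes and the sterol regulatory element in capitals (an NF-Y box on the other strand reads ATTGG). SCD holds 2 NF-Y boxes, from 229 to 225 and from 186 to 182 bases before the start. HMGCS1 holds them from 155 to 151 and from 100 to 96, TM7SF2 has 1 from 74 to 70, and ELOVL6 has 0. The ELOVL6 window lies inside the gene span of GENCODE 29 (chr4:110045846-110199199), so the bases before that span's 5′ end were not searched. SREBF2 has the sterol regulatory element from 133 to 125 and an NF-Y box from 106 to 102. A match of letters is a description and not a bound site, and nothing was drawn from windows without one.
SCD (chr10:100346983-100347232, plus strand): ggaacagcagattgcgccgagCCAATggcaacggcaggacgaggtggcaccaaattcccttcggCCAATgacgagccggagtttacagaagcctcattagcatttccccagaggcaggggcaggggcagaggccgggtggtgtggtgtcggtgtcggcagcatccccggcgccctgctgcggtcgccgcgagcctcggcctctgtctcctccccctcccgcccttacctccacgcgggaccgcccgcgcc
ELOVL6 (chr4:110198616-110198865, minus strand): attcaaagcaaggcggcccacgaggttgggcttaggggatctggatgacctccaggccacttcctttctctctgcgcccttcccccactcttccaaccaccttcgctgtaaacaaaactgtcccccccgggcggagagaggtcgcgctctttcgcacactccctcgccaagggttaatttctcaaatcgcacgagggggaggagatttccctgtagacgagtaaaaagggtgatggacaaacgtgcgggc
HMGCS1 (chr5:43313413-43313662, minus strand, 1 of the 2 windows listed): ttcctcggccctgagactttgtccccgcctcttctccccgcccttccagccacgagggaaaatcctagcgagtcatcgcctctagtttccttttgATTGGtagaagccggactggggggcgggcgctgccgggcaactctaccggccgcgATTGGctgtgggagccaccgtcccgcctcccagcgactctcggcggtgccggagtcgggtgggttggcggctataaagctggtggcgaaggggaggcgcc
TM7SF2 (chr11:65111622-65111871, plus strand): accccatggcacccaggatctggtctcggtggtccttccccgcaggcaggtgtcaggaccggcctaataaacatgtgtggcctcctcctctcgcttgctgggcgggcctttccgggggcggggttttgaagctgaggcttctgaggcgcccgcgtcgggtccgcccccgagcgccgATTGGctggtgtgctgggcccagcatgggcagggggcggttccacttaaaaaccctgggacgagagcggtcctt
SREBF2 (chr22:41832855-41833104, plus strand): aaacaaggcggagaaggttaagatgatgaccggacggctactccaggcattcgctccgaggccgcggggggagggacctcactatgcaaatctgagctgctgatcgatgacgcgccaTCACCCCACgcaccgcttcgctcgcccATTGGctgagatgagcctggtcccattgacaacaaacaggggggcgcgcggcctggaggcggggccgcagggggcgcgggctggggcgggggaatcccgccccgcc

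The deposited values are TPM, a transcript abundance corrected for length, in which each library sums to the same total and the sequencing depth is no longer visible. The labels held in the knockdown arm: APC stood at 15.8, 16.1 and 17.3 TPM with shNT1 and at 6.59, 5.91 and 5.48 with shAPC. CTNNB1 stood at 144, 145 and 149.6 TPM with GFP and at 165, 159.6 and 156 with the CTNNB1 open reading frame, all higher but short of the test at a log2 change of 0.13 (SE 0.04, adjusted p = 0.059); it passed in 2 of 14 alternatives, after quantile normalization (0.048) and without CTNNB1 library 1 (0.0496). AXIN2, a target of the WNT pathway, rose by 1.04 (adjusted p = 3.0e-06) and by 1.59 (adjusted p = 3.5e-07) on the log2 scale in the overexpression and knockdown arms. Of 10 colon epithelium markers, 8 averaged at least 1 TPM, with CDH17 and CDX2 below it. Of the epithelial markers tested, 3 of 8 rose and 2 fell with CTNNB1 and 4 fell with shAPC; their summed level ran from 11583 to 11732 TPM with GFP, 12801 to 12894 with CTNNB1, 9683 to 11326 with shNT1 and 9211 to 10176 with shAPC, and their part in the results below was not tested. The leukocyte markers PTPRC and CD3E were at or near 0, and CD68 fell in both arms, from means of 26.96 to 13.2 TPM (adjusted p = 2.4e-05) and from 13.8 to 7.51 TPM (adjusted p = 0.00067), and its part in the results below was not tested. Fibroblast, endothelial and hepatocyte markers each summed to under 1.2 TPM in every library. Between 14756 (shNT1 library 3) and 16186 genes were above 0 per library. In bulk RNA, fewer cells of a kind and less RNA per cell cannot be told apart.

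At the level of the pathway, HT-29 expressed 27 of the 29 members at a mean of at least 1 TPM, and those 27 were tested in each comparison. SCD, the stearoyl-CoA desaturase that makes oleate, was the most abundant member in all 12 libraries (519 to 1016 TPM), and SQLE, squalene epoxidase, was the next in all 12 (448 to 589 TPM). The lowest of the tested members were LSS, lanosterol synthase (8.31 to 10.1 TPM), and MVK, mevalonate kinase (12.8 to 17.1 TPM). FADS1 and FADS2, the desaturases of polyunsaturated fatty acids, stayed at 0.461 to 1.13 and 0.0641 to 0.255 TPM, below the filter in each comparison, and no change is given for either. TPM is per length, so these levels can be set beside each other.

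**Figure D1:**
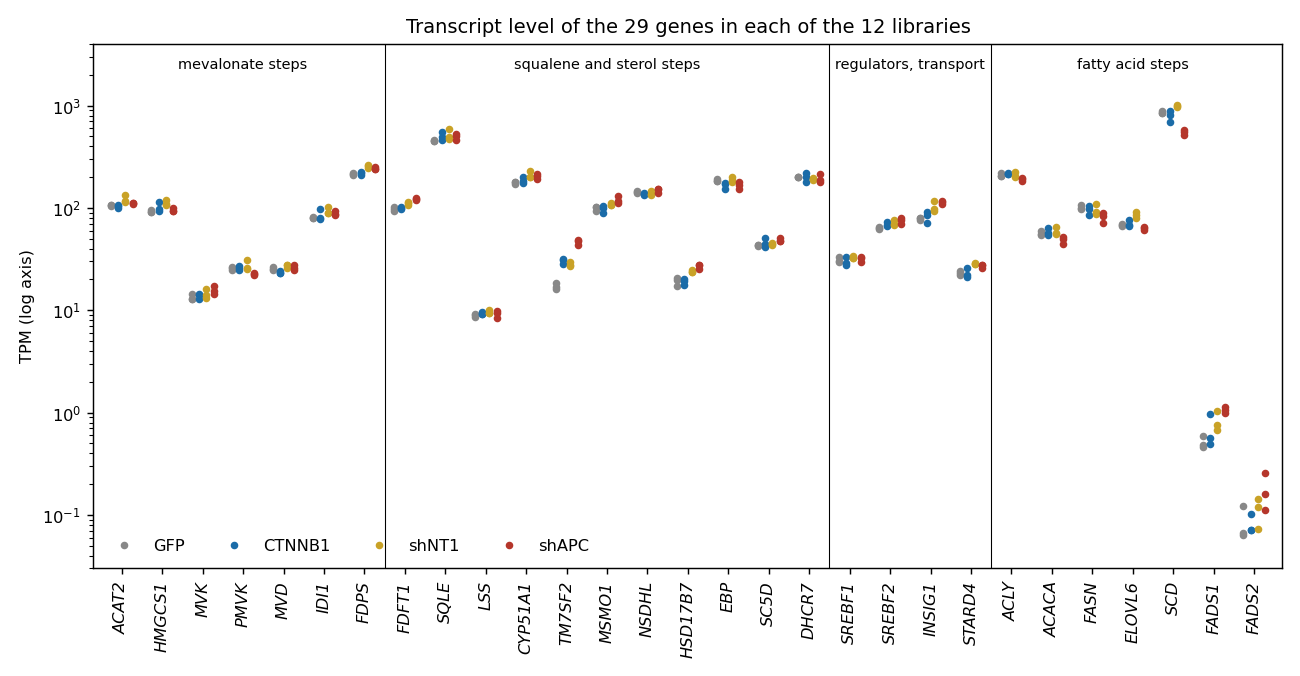
TPM of the 29 genes (log axis) in pathway order, 1 point per library, coloured by group; vertical lines part the mevalonate, sterol, regulator and fatty acid genes. The members span from 0.0641 TPM for FADS2 to 1016 TPM for SCD in 1 shNT1 library, and for most members the 4 groups lie close together.

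Summed over the 18 genes of the mevalonate and sterol steps, the level was 2004 ± 15.4 TPM (SD, n = 3) with GFP, 2063 ± 83.99 with CTNNB1, 2221 ± 123 with shNT1 and 2185 ± 91.7 with shAPC. Summed over the 7 fatty acid genes it was 1292 ± 34.1, 1241 ± 105, 1443 ± 60.04 and 933 ± 49.1 TPM in the same order. The fatty acid sum of the 3 shAPC libraries (878 to 972 TPM) lay below that of all shNT1 libraries (1385 to 1505 TPM), while the cholesterol sums of these 2 groups overlapped. SCD accounts for most of that gap: without it, the fatty acid sum was 449.9 ± 35.3 TPM with shNT1 and 385 ± 22.7 with shAPC. These sums describe the libraries and were not tested.

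With CTNNB1 overexpression, 1 of the 27 members (3.7%) passed the test, limma on log2(TPM + 1) at a Benjamini-Hochberg adjusted p under 0.05, and it rose: TM7SF2. That is a smaller share than among all 11624 genes tested, of which 16.3% rose and 7.16% fell; 0 members fell. At an unadjusted p under 0.05 the count of members was 4 (14.8%, against 37.2% of all genes). The libraries of the 2 groups did not overlap for 6 members (22.2%), against 43.2% of all genes. The median log2 change of the members was 0.03 and that of all genes 0.06. The sign of the members' median depended on the scaling, since it was -0.03 when libraries were scaled by the median ratio to a common reference and -0.0013 after quantile normalization; the share of all calls that were higher moved from 69.5% to 49.4% and 52.9%.

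With APC knockdown, 1 member rose, again TM7SF2, and 5 fell: SCD, ELOVL6, ACACA, HMGCS1 and PMVK. Among all 11834 genes tested, 7.24% rose and 14.9% fell, so the 18.5% of members that fell stands near the background. The libraries did not overlap for 13 members (48.1%, 5 higher and 8 lower), against 40.9% of all genes, and 12 members (44.4%, against 36.2%) had an unadjusted p under 0.05. The median log2 change was -0.06 for the members and -0.04 for all genes; for the members it was -0.01 with median-ratio scaling and 0.01 after quantile normalization, a flip of sign. The share of all calls that were higher was 32.8%, and 47.6% and 49.4% under these scalings.

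**Figure D2:**
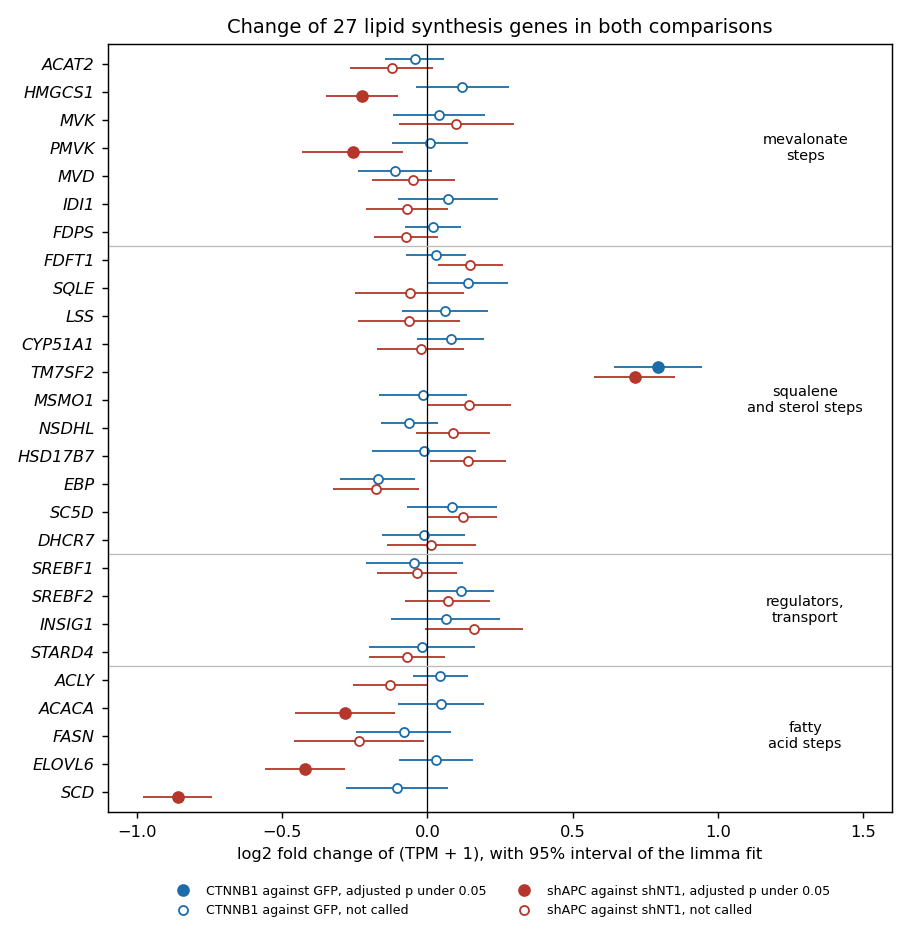
Log2 fold change of (TPM + 1) with the 95% interval of the limma fit for the 27 tested members, CTNNB1 against GFP in blue and shAPC against shNT1 in red; filled points passed the test. TM7SF2 stands to the right in both comparisons, and SCD at -0.86 and ELOVL6 at -0.42 stand to the left with shAPC alone.

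The fatty acid genes carried the largest losses of the set in the knockdown arm: 3 of the 5 tested fell and all 5 estimates were negative. Their median was -0.28 on the log2 scale, and all 5 remained negative under both other scalings (medians -0.23 and -0.21). Among all 11834 genes tested, 14.9% fell with shAPC and 7135 had a negative estimate, at a median of -0.04. Under the other scalings the median of all genes was 0.0030 and -0.0034. With CTNNB1, 0 of the 5 fatty acid genes passed, and their median was 0.03 (-0.03 and -0.0013 under the other scalings). SCD (gene at chr10:100347124-100364834, plus strand, GRCh38, GENCODE 29) stood at 963, 1001 and 1016 TPM with shNT1 and at 553, 572 and 519 with shAPC. Every shAPC library lay far below every shNT1 library, the means being 993 ± 26.98 and 548 ± 27 TPM, a fall of 44.8%. The log2 change was -0.86 (SE 0.05, adjusted p = 6.6e-06), with a 95% interval from -0.98 to -0.74. With GFP it stood at 843, 841 and 878 TPM and with CTNNB1 at 889.8, 816 and 689.8, groups that overlapped at a log2 change of -0.10 (SE 0.08, adjusted p = 0.37) and an interval from -0.28 to 0.07. CTNNB1 library 3, the lowest of these, is also the lowest of its group for most members.

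ELOVL6, which elongates palmitate to stearate (gene at chr4:110045846-110199199, minus strand), stood at 79.4, 84.7 and 90.8 TPM with shNT1 and at 65.2, 63.5 and 60.7 with shAPC. All 3 shAPC libraries were lower, by 25.7% on the means, and the log2 change was -0.42 (SE 0.06, adjusted p = 0.0012). With GFP the values were 69.9, 68.5 and 67.3 TPM and with CTNNB1 75.5, 67.6 and 67.1, which overlapped at 0.03 (SE 0.06, adjusted p = 0.74). The shAPC level is thus not far below that of the other arm's groups, and the shNT1 libraries hold the highest values of the 4 groups.

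ACACA, the acetyl-CoA carboxylase that makes malonyl-CoA (gene at chr17:37084988-37406818, minus strand), stood at 56.4, 56.1 and 65.7 TPM with shNT1 and at 49.8, 51.6 and 44.5 with shAPC. The groups did not overlap and the means differed by 18.2%, at a log2 change of -0.28 (SE 0.08, adjusted p = 0.027). The call was lost in 6 of 14 alternative settings, among them the fit without shNT1 library 3 (adjusted p = 0.054), without shAPC library 1 (0.062) and without shAPC library 3 (0.10). With GFP and CTNNB1 it stood at 54.2, 55.9 and 59.4 and at 63.96, 56.6 and 54.9 TPM, which overlapped at 0.05 (SE 0.07, adjusted p = 0.64). FASN, the fatty acid synthase, stood at 86.5, 91.7 and 109.6 TPM with shNT1 and 83, 90.1 and 70.8 with shAPC, so that shAPC library 2 lay within the range of the controls, and the log2 change was -0.24 (SE 0.10, adjusted p = 0.12). ACLY, which releases acetyl-CoA from citrate, stood at 199, 205 and 222 and 198, 193 and 182 TPM, lower in all 3 shAPC libraries but short of the test at -0.13 (SE 0.06, adjusted p = 0.14). With CTNNB1 the changes of FASN and ACLY were -0.08 (adjusted p = 0.45) and 0.05 (adjusted p = 0.47).

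**Figure D3:**
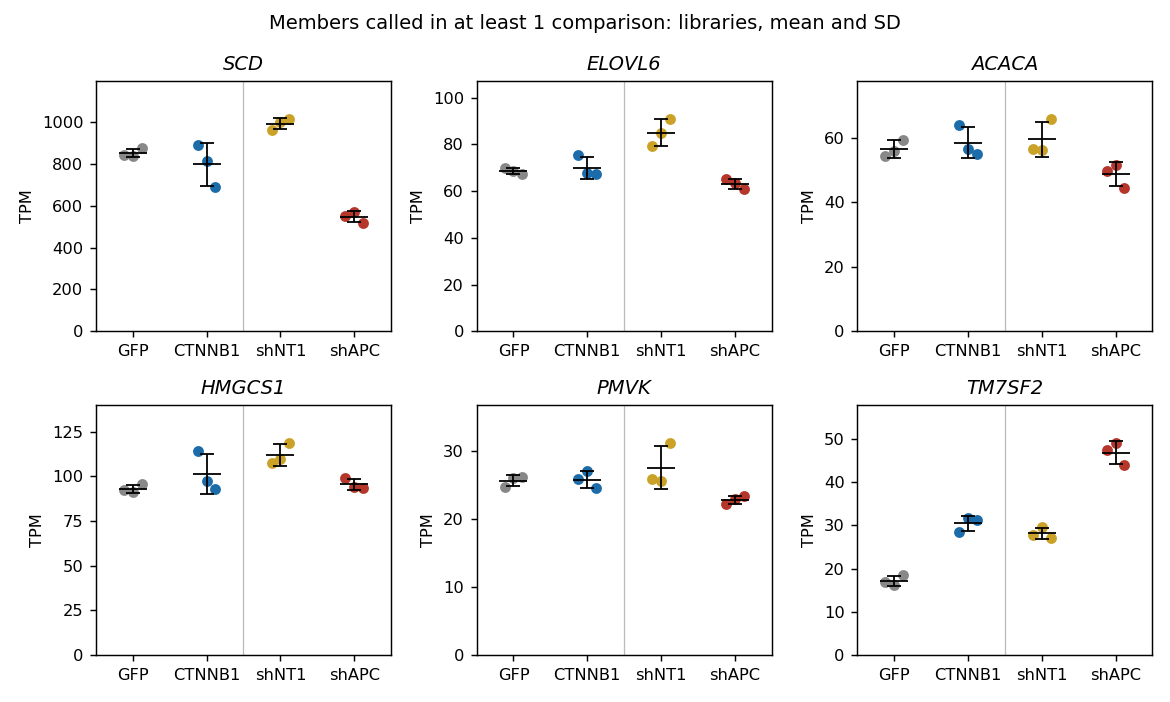
TPM (linear axis from 0) of the 6 members that passed the test in at least 1 comparison, with 1 point per library and the mean and SD of each group (n = 3). SCD falls from 993 to 548 TPM between shNT1 and shAPC with no overlap, and TM7SF2 is higher in both treated groups than in their own controls.

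In the mevalonate steps, 2 of 7 genes fell with shAPC and 0 of 7 changed with CTNNB1, with median log2 changes of -0.07 and 0.02. Of the 7, 6 had a negative estimate with shAPC, 5 when scaled by median ratios and 4 when quantile normalized. Of all 11834 genes, 7135 had a negative estimate with shAPC and 14.9% fell, without further scaling. The median of all genes was -0.04 there, and 0.0030 and -0.0034 under the other scalings. The median of the mevalonate genes with CTNNB1 turned to -0.05 and -0.03 under the other scalings. HMGCS1, the synthase that joins acetyl-CoA to acetoacetyl-CoA (gene at chr5:43289395-43313512, minus strand), stood at 107, 109.9 and 119 TPM with shNT1 and 98.98, 94.4 and 93.3 with shAPC. The groups did not overlap, the fall was 14.7%, and the log2 change was -0.23 (SE 0.06, adjusted p = 0.017). The call was lost in 3 of 14 alternatives (adjusted p up to 0.064), among them without shAPC library 2 (0.058) or shAPC library 3 (0.064), and the third loss came with replicate number as a block (adjusted p = 0.052). With GFP it stood at 92.3, 91.1 and 95.7 TPM and with CTNNB1 at 114, 97.4 and 93.2, 1 high library and 2 within or near the control range, at 0.12 (SE 0.07, adjusted p = 0.25).

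PMVK, which adds the second phosphate to mevalonate (gene at chr1:154924734-154936991, minus strand), stood at 25.9, 25.6 and 31.2 TPM with shNT1 and 22.2, 22.9 and 23.4 with shAPC. All shAPC libraries were lower and shNT1 library 3 stood above its own group, at a log2 change of -0.26 (SE 0.08, adjusted p = 0.041). Among the 6 calls of the knockdown arm this one was lost most often, in 9 of 14 alternative settings, including without shNT1 library 3 (adjusted p = 0.089), without each of shAPC libraries 1, 2 and 3 (0.11, 0.10 and 0.083) and in both other scalings (0.069 and 0.078). With CTNNB1 its change was 0.01 (adjusted p = 0.92). The remaining mevalonate genes did not pass in either comparison. ACAT2, the thiolase of the first step, was lower in all shAPC libraries at -0.12 (adjusted p = 0.20), and MVD, the decarboxylase, was lower in all CTNNB1 libraries at -0.11 (adjusted p = 0.19). MVD passed as lower under median-ratio scaling (adjusted p = 0.042) and quantile normalization (0.049). MVK, IDI1 (the isopentenyl diphosphate isomerase) and FDPS (farnesyl diphosphate synthase) had log2 changes of 0.04, 0.07 and 0.02 with CTNNB1 and of 0.10, -0.07 and -0.07 with shAPC.

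Among the 11 squalene and sterol genes, 1 rose and 0 fell in each comparison, with medians of 0.03 with CTNNB1 (-0.03 and 0.00028 under median-ratio and quantile scaling) and 0.09 with shAPC (0.14 and 0.18). TM7SF2, a sterol reductase that acts after the demethylation by CYP51A1 (gene at chr11:65111845-65116384, plus strand), was the member with the largest rise in both. It stood at 16.9, 16.3 and 18.4 TPM with GFP and 28.6, 31.7 and 31.3 with CTNNB1, and at 27.8, 29.6 and 27.2 with shNT1 and 47.6, 49.1 and 43.9 with shAPC. Every treated library lay above every library of its own control, by 77.6% and 66.3% on the means. The log2 changes were 0.79 (SE 0.07, adjusted p = 5.9e-05) and 0.71 (SE 0.06, adjusted p = 5.6e-05), and both calls held under all 14 alternatives of their comparison. The shNT1 control stood near the level of the CTNNB1 group, in an arm with another vector, day and doxycycline. The annotation places VPS51 on the same strand with 16 bases of overlap with TM7SF2.

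None of the other sterol genes passed with CTNNB1. EBP, the sterol isomerase, was lower in all CTNNB1 libraries (184, 191 and 184 TPM with GFP, 151, 174 and 172 with CTNNB1) at -0.17 (SE 0.06, adjusted p = 0.060). It passed as lower under median-ratio scaling (adjusted p = 0.044) and without CTNNB1 library 3 (0.0496). With shAPC its change was of like size, -0.18 (adjusted p = 0.087), and its groups overlapped. SQLE stood at 453, 448 and 457 TPM with GFP and 551, 491 and 459.6 with CTNNB1, all higher at 0.14 (adjusted p = 0.13), and it passed without CTNNB1 library 3 (adjusted p = 0.028). With shAPC it was -0.06 (adjusted p = 0.65).

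With shAPC, 7 of the 11 sterol genes had positive estimates, against 39.7% of all genes tested, without further scaling. Under both other scalings 8 of the 11 were positive. There the median of all genes moved from -0.04 to 0.0030 and -0.0034, so 39.7% is not their background. Besides TM7SF2, 4 were higher in all shAPC libraries without passing. The libraries did not overlap for 45.5% of the sterol genes, near the 40.9% of all genes. Of all 11834 genes, 1715 were higher in every shAPC library. FDFT1, squalene synthase, stood at 111, 114 and 107 TPM with shNT1 and 126, 122 and 119 with shAPC, at 0.15 (SE 0.05, adjusted p = 0.060). MSMO1 and HSD17B7, which help remove the methyl groups of lanosterol, were at 0.14 (adjusted p = 0.14) and 0.14 (adjusted p = 0.11), and SC5D, a sterol desaturase, was at 0.12 (adjusted p = 0.13). Whether these count as changed depends on the scaling. Under median-ratio scaling FDFT1 (adjusted p = 0.017), HSD17B7 (0.026) and SC5D (0.036) passed as higher. With TM7SF2 that made 4 of the 11, where 11.5% of all genes rose. Under quantile normalization the same genes passed (FDFT1 0.0077, HSD17B7 0.025, SC5D 0.026), together with MSMO1 (0.027) and NSDHL (0.040), a further enzyme of that demethylation. With TM7SF2 that made 6 of the 11, where 11.3% of all genes rose. The fatty acid genes SCD, ELOVL6 and ACACA and the mevalonate gene HMGCS1 passed as lower under both scalings. Of all genes, 12.6% and 11.6% fell there. LSS, CYP51A1 and DHCR7, the enzyme of the last reduction to cholesterol, had log2 changes of -0.06, -0.02 and 0.01 with shAPC and of 0.06, 0.08 and -0.01 with CTNNB1, and none passed.

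The regulators of the set did not pass in either comparison. SREBF1 stood at 30.5, 29.7 and 33.2 TPM with GFP, 28, 33.3 and 29.2 with CTNNB1, 32.1, 32.5 and 33.6 with shNT1 and 32.6, 33.5 and 29.8 with shAPC. The groups overlapped in both arms, with log2 changes of -0.04 (95% interval -0.21 to 0.12, adjusted p = 0.69) and -0.04 (-0.17 to 0.10, adjusted p = 0.72). SREBF2 stood at 62.3, 63.8 and 65.8 TPM with GFP and 68.3, 72.5 and 67.2 with CTNNB1, all higher at 0.11 (SE 0.05, adjusted p = 0.13). With shNT1 and shAPC it stood at 67.6, 70.1 and 76.6 and 75.9, 79.2 and 70.04 TPM, which overlapped at 0.07 (SE 0.07, adjusted p = 0.48). INSIG1 encodes an INSIG protein, which helps to hold the SREBF proteins in the endoplasmic reticulum when sterol is plentiful. INSIG1 stood at 79.4, 80.3 and 76.7 TPM with GFP and 92, 85.6 and 70.9 with CTNNB1, where library 3 fell below the controls. The log2 change was 0.06 (SE 0.08, adjusted p = 0.62). With shNT1 it stood at 94.4, 96.9 and 116 TPM and with shAPC at 114, 118 and 110: shNT1 library 3 lay among the shAPC values and the other two lay below all of them. Its log2 change was 0.16 (SE 0.08, adjusted p = 0.16), and it passed as higher when scaled by median ratios (adjusted p = 0.049), when quantile normalized (0.032) and without shNT1 library 3 (0.25 on the log2 scale, 0.0087). STARD4, a carrier of sterol between membranes, had changes of -0.02 (adjusted p = 0.90) and -0.07 (adjusted p = 0.42). Transcript levels of SREBF1 and SREBF2 say nothing of the processing of their proteins.

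The difference between the arms, the CTNNB1 effect minus the shAPC effect, was itself tested over all 12 libraries. It passed as positive for 3 of the 27 members, SCD, ELOVL6 and HMGCS1, and as negative for 0. Of the 11741 genes tested, 13.3% passed as positive and 2.76% as negative. An unadjusted p under 0.05 was found for 7 members (25.9%, against 31.9% of all genes). The difference was 0.75 (SE 0.10, adjusted p = 0.00042) on the log2 scale for SCD, 0.45 (SE 0.08, adjusted p = 0.0034) for ELOVL6 and 0.35 (SE 0.09, adjusted p = 0.025) for HMGCS1. All 5 fatty acid genes had a positive difference, also under both other scalings, with a median of 0.33 (0.22 and 0.21 under the other scalings). Without further scaling, the estimate was positive for 17 of the 27 members (63%), 70.1% of all genes and all 8 tested colon epithelium markers. The median of these markers was 0.22 and 3 of them passed (KRT20 at 0.60, VIL1 at 0.52 and CDH1 at 0.32). Their part in the result was not tested. SCD and ELOVL6 kept the call in all 19 alternatives of this test. HMGCS1 lost it in 8 of 19, at adjusted p from 0.052 to 0.066, among them without GFP library 1 (0.058), GFP library 2 (0.066), shNT1 library 3 (0.057), shAPC library 2 (0.055) or shAPC library 3 (0.065). ACACA, at 0.33 (SE 0.11, adjusted p = 0.053), passed without CTNNB1 library 3 (adjusted p = 0.038). For TM7SF2 the difference was 0.08 (SE 0.09, adjusted p = 0.58), with a 95% interval from -0.12 to 0.28. The arms differ in vector, collection day and doxycycline, which cannot be told apart from the difference in effect.

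This test is the one most exposed to scaling. The median difference over all genes was 0.11 on the log2 scale, against 0.0041 under median-ratio scaling, and the share of calls that were positive was 82.8%, against 55% and 56.5% with the median-ratio and quantile methods. The members' median was 0.08, and -0.03 and -0.06 under these scalings, and 0.08 lies below the median of all genes. Under both, FDFT1 and NSDHL passed as negative (adjusted p = 0.025 and 0.024 under median-ratio scaling), and HMGCS1 no longer passed (0.052 and 0.053).

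Within groups, the same library was often the highest or the lowest for many members at once. In shNT1, library 3 was the highest of the 3 for 22 of 27 members (81.5%; 55.3% of all genes), and library 1 was the lowest for 17 (63%; 34.8%). In CTNNB1, library 3 was the lowest for 20 of 27 (74.1%; 45.5% of all genes), and library 1 was the highest for 16 (59.3%; 54.8% of all genes). In shAPC, library 3 was the lowest for 19 (70.4%; 51.5% of all genes). The median coefficient of variation of the members was 2.76% with GFP, 7.53% with CTNNB1, 5.37% with shNT1 and 5.3% with shAPC, beside 4.44%, 7.21%, 6.12% and 6.12% over all genes. SCD deviated most clearly in CTNNB1 library 3 (689.8 TPM against 889.8 and 816 in libraries 1 and 2), a spread within 1 group that is smaller than the gap between shNT1 and shAPC. Library 3 of shNT1 also had the fewest genes above 0.

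**Figure D4:**
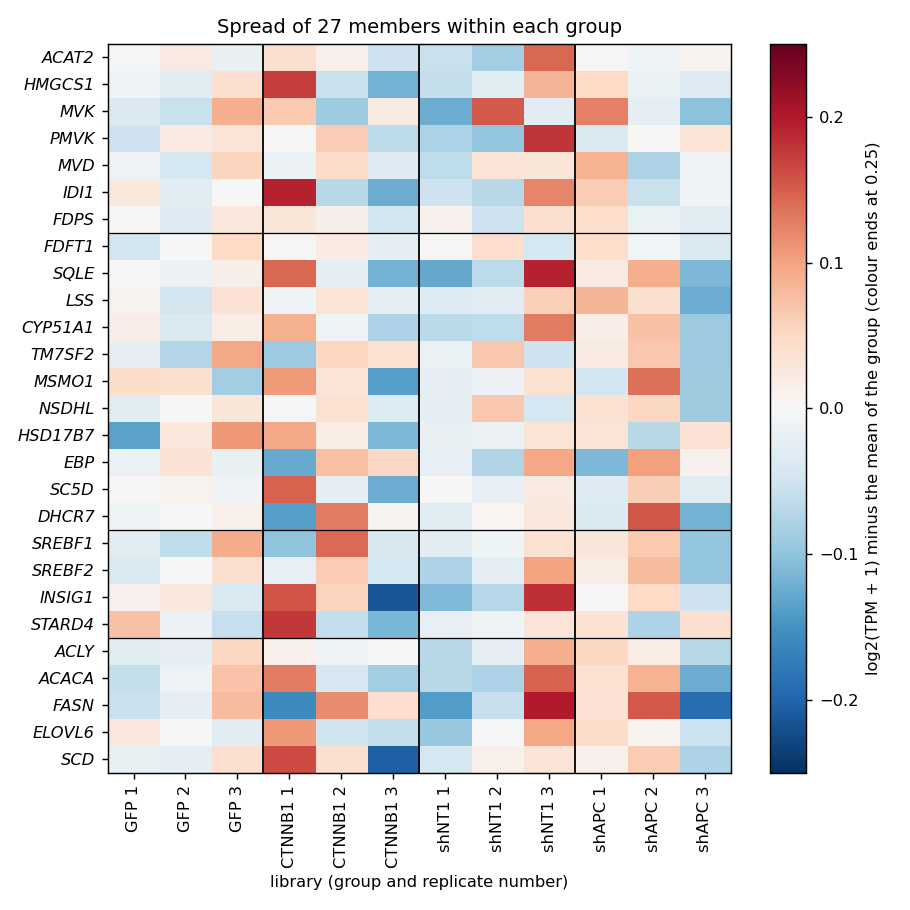
Deviation of log2(TPM + 1) from the mean of the group, for 27 members (rows, in pathway order) and 12 libraries (columns, by group and replicate number). The column of shNT1 library 3 is mostly red and that of CTNNB1 library 3 mostly blue; the largest deviation is 0.214.

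The authors' deposited table of shAPC against shNT1, made by the authors with limma, lists 6 members at an adjusted p under 0.05. TM7SF2, FDFT1 and HSD17B7 are higher there, and SCD, ELOVL6 and HMGCS1 are lower. Over all its rows, which include genes below the filter used here, 2523 are under 0.05. Whether members are over-represented among these rows was not tested. In the authors' deposited table SCD has a log2 change of -0.82 (adjusted p = 0.00066), ELOVL6 -0.39 (0.0038), HMGCS1 -0.19 (0.0091) and TM7SF2 0.77 (0.0023). FDFT1 and HSD17B7, which stopped short of the test above, are at 0.19 (0.040) and 0.18 (0.046) in the authors' deposited table, while ACACA (-0.25, 0.084) and PMVK (-0.23, 0.15) do not pass there. For CTNNB1 against GFP, the authors' deposited table has TM7SF2 as the single member at an adjusted p under 0.05 (0.75, 0.0041). It is 1 of 2638 rows under 0.05 there. The members called in both analyses, 4 in the knockdown arm and 1 in the overexpression arm, have the same direction in each.

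Other genes of lipid handling were read from a list of 44 set by pathway, of which 42 were tested. Over all genes tested, 16.3% rose and 7.16% fell with CTNNB1, and 7.24% rose and 14.9% fell with shAPC. Of 6 genes of liver X receptor signalling and sterol efflux, 3 fell in each arm: ABCG1, NR1H3 and LPCAT3. ABCG1, an exporter of sterol, stood at 6.63, 7.10 and 7.51 TPM with GFP and 4.42, 5.06 and 3.84 with CTNNB1, and at 9.76, 10.9 and 8.24 with shNT1 and 6.82, 5.48 and 6.39 with shAPC. It was lower in every treated library, at -0.57 (SE 0.10, adjusted p = 0.0028) and -0.55 (SE 0.11, adjusted p = 0.0057). NR1H3, which encodes a liver X receptor, was at -0.38 (adjusted p = 0.0027) and -0.28 (adjusted p = 0.019), and LPCAT3, a phospholipid acyltransferase induced by that receptor, at -0.26 (adjusted p = 0.0023) and -0.22 (adjusted p = 0.026). The knockdown call of NR1H3 was lost in 2 of 14 alternatives, without shNT1 library 1 (0.064) or shAPC library 3 (0.072), and that of LPCAT3 in 8 of 14 alternatives (adjusted p up to 0.12), among them without shNT1 library 1 (0.075), shNT1 library 2 (0.088), shAPC library 1 (0.059) or shAPC library 3 (0.099). The other calls of this list held in every alternative that tested them. For none of the 6 genes of this list did the difference between the arms pass. SREBF1, also a liver X receptor target, did not pass, as given above.

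In the list of SREBP processing, INSIG2 rose with CTNNB1 at 0.24 (adjusted p = 0.024) and was the single call of 4 genes tested; 0 of 4 were called with shAPC, with INSIG2 at 0.06 (adjusted p = 0.48). Of 5 genes of sterol transport and storage, NPC2, which carries cholesterol out of lysosomes, rose in both arms at 0.19 (adjusted p = 0.038) and 0.26 (adjusted p = 0.026). TMEM97, a sterol-regulated membrane protein, fell with shAPC at -0.23 (adjusted p = 0.012), against 0.06 (adjusted p = 0.34) with CTNNB1, and the difference between the arms passed at 0.29 (adjusted p = 0.0094). The CTNNB1 call of INSIG2 was lost in 5 of 14 alternatives (adjusted p up to 0.083), among them without GFP library 1 (0.074), GFP library 2 (0.083), GFP library 3 (0.074) or CTNNB1 library 2 (0.061). That of NPC2 was lost in 10 of 14 alternatives (adjusted p up to 0.18), among them without GFP library 1 (0.13), GFP library 2 (0.082), GFP library 3 (0.11), CTNNB1 library 2 (0.14) or CTNNB1 library 3 (0.061). With shAPC, that of NPC2 was lost in 6 of 14 alternatives (adjusted p up to 0.10), among them without shNT1 library 2 (0.053), shAPC library 2 (0.097) or shAPC library 3 (0.10), and that of TMEM97 in 1 of 14 alternatives, without shAPC library 3 (0.052).

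Of 11 tested genes of acetyl-CoA, NADPH and acyl-CoA supply and elongation, 2 rose and 2 fell with CTNNB1, and 3 rose and 3 fell with shAPC. ACSL5, an acyl-CoA synthetase of the intestine, rose in both at 0.45 (adjusted p = 0.00020) and 0.53 (adjusted p = 6.5e-05), and ACSS2, which makes acetyl-CoA from acetate, at 0.41 (adjusted p = 0.024) and 0.35 (adjusted p = 0.031). ELOVL1, an elongase of very long chains, fell in both at -0.40 (adjusted p = 0.0022) and -0.41 (adjusted p = 0.0026). ME1, the malic enzyme that supplies NADPH, fell with CTNNB1 at -0.68 (adjusted p = 5.1e-05) and less with shAPC at -0.20 (adjusted p = 0.023), and here the difference between the arms passed with the sign opposite to that of SCD, at -0.48 (adjusted p = 0.0010). ACSL3 fell with shAPC at -0.42 (adjusted p = 0.0017) and was at -0.21 (adjusted p = 0.074) with CTNNB1. The call of ACSS2 was lost with CTNNB1 in 5 of 13 alternatives (adjusted p up to 0.094), among them without GFP library 1 (0.085), GFP library 2 (0.093) or CTNNB1 library 2 (0.094), and with shAPC in 5 of 14 alternatives (adjusted p up to 0.11), among them without shNT1 library 3 (0.067), shAPC library 1 (0.10) or shAPC library 3 (0.11). That of ME1 with shAPC was lost in 7 of 14 alternatives (adjusted p up to 0.083), among them without shNT1 library 1 (0.083), shNT1 library 2 (0.054), shAPC library 2 (0.082) or shAPC library 3 (0.075). ACSL3 passed as lower with CTNNB1 in 3 of 14 alternatives, among them without CTNNB1 library 1 (0.0014). With all libraries kept, its adjusted p went down to 0.019. ELOVL5 was listed at 0 in 10 of the 12 libraries and was not tested, nor was ACACB, below the filter. A 0 in these values can be a failed estimate, so it is not read as absence of ELOVL5.

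Of 5 genes of glycerolipid synthesis, DGAT2 and GPAM rose with CTNNB1 at 0.28 (adjusted p = 0.013) and 0.23 (adjusted p = 0.029), and AGPAT2 fell with shAPC at -0.34 (adjusted p = 0.0047). DGAT2, which makes triglyceride, was at -0.18 (adjusted p = 0.13) with shAPC, and its difference between the arms was 0.46 (adjusted p = 0.010). Of 11 genes of fatty acid oxidation, 3 fell in each arm. ACADVL, the dehydrogenase of very long chains, fell at -0.44 (adjusted p = 0.00040) and -0.32 (adjusted p = 0.023) and ETFB, an electron carrier of that pathway, at -0.22 (adjusted p = 0.024) and -0.18 (adjusted p = 0.027). CPT1A, which admits fatty acids to mitochondria, fell with CTNNB1 at -0.17 (adjusted p = 0.048), ACAA2 rose with CTNNB1 at 0.16 (adjusted p = 0.045), and ETFA fell with shAPC at -0.21 (adjusted p = 0.030). ETFA also passed as lower with CTNNB1 in 4 of 14 alternatives. With shAPC, CPT1A passed as lower and ACAA2 as higher in 1 of 14 alternatives each. The CTNNB1 call of DGAT2 was lost in 2 of 14 alternatives, without GFP library 2 (0.070) or CTNNB1 library 2 (0.060). That of GPAM was lost in 7 of 14 alternatives (adjusted p up to 0.097), among them without GFP library 1 (0.079), GFP library 2 (0.097), GFP library 3 (0.095) or CTNNB1 library 2 (0.071). For ETFB it was lost in 5 of 14 alternatives (adjusted p up to 0.097), among them without GFP library 2 (0.087), GFP library 3 (0.097) or CTNNB1 library 2 (0.060). CPT1A lost it in 8 of 14 alternatives (adjusted p up to 0.17), among them without GFP library 1 (0.094), GFP library 2 (0.12), GFP library 3 (0.17), CTNNB1 library 2 (0.14) or CTNNB1 library 3 (0.11), and ACAA2 lost it in 7 of 14 alternatives (adjusted p up to 0.17), among them without GFP library 1 (0.099), GFP library 2 (0.17), GFP library 3 (0.12) or CTNNB1 library 2 (0.10). With shAPC, the call of ACADVL was lost in 4 of 14 alternatives (adjusted p up to 0.085), among them without shAPC library 2 (0.085) or shAPC library 3 (0.083). ETFB lost it in 8 of 14 alternatives (adjusted p up to 0.13), among them without shNT1 library 1 (0.079), shNT1 library 3 (0.061), shAPC library 1 (0.053), shAPC library 2 (0.071) or shAPC library 3 (0.081), and ETFA lost it in 10 of 14 alternatives (adjusted p up to 0.094), among them without shNT1 library 1 (0.077), shNT1 library 3 (0.061), shAPC library 1 (0.062), shAPC library 2 (0.094) or shAPC library 3 (0.082). The calls of AGPAT2 with shAPC and ACADVL with CTNNB1 held in every alternative that tested them.

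**Figure D5:**
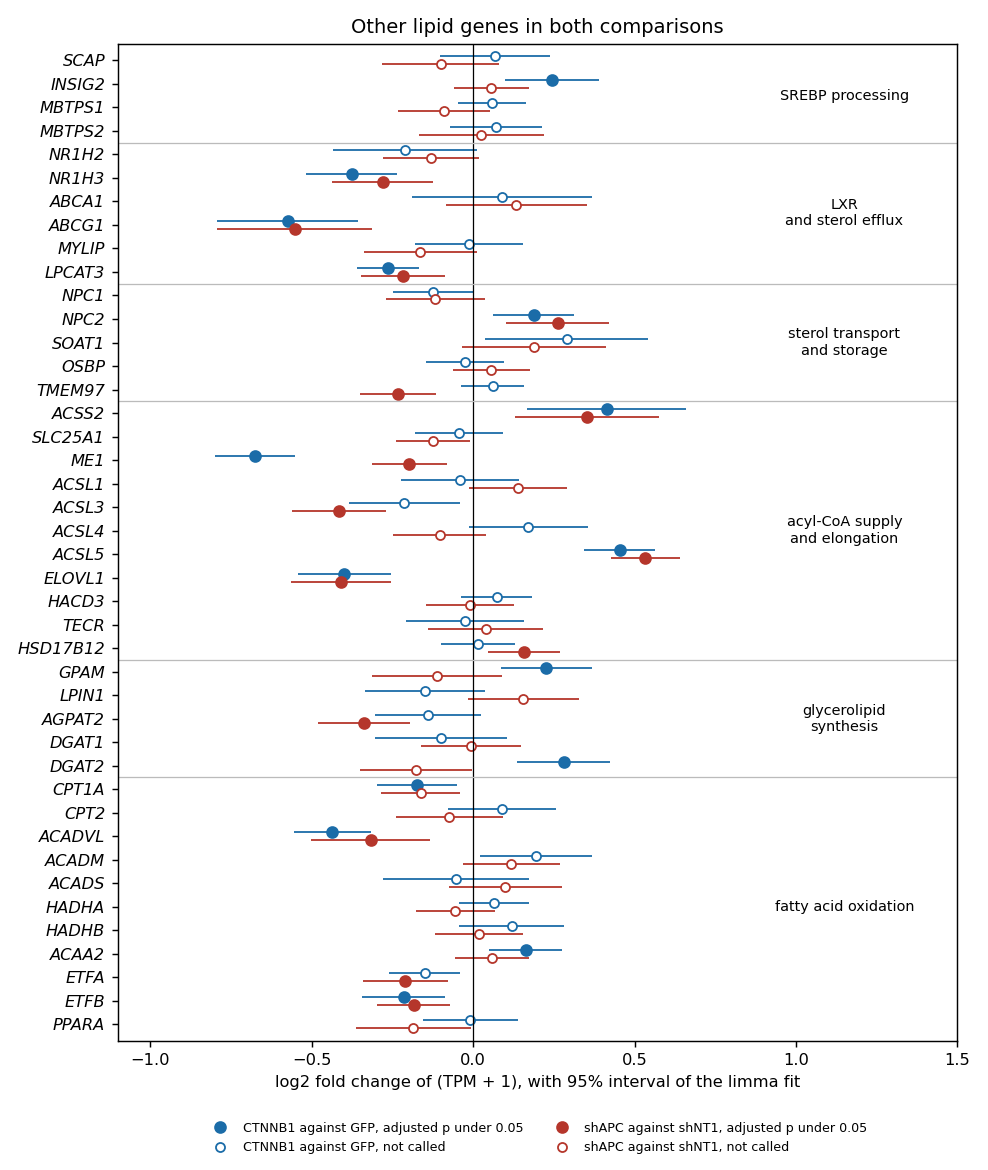
Log2 fold change of (TPM + 1) with the 95% interval of the limma fit for 42 other lipid genes, grouped by list, CTNNB1 against GFP in blue and shAPC against shNT1 in red; filled points passed the test. ABCG1, NR1H3, LPCAT3, ME1, ELOVL1, ACADVL and ETFB passed to the left in both comparisons and NPC2, ACSL5 and ACSS2 to the right.

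Some members cannot be counted without doubt. Named pseudogenes exist for FDPS (8), CYP51A1 (3), HSD17B7 (2), SCD (1) and FADS2 (1), and reads could be split with them. A gene with a mean of at least 1 TPM overlaps 5 members on the annotation (ACAT2 by SOD2 and TCP1, MVK by MMAB, TM7SF2 by VPS51, SREBF1 by RAI1 and FADS2 by FEN1), FADS1 lies within the span of FADS2 on the other strand, and whether strand was used in counting is not stated. The identifier paired with LSS in the deposited tables differs from that of GENCODE 29, and the other 28 are the same.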

How the data were processed

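RNA-seq of HT-29 cells was used as gene-level TPM, as deposited by the authors; reads were aligned with STAR 2.7.3a to hg38, per the submitters' processing notes, and the tool and annotation behind the TPM are not given in the sources used here. TPM keeps no depth, so precision rests on the 3 libraries per group. The authors' deposited tables of both comparisons hold log2 fold changes and adjusted p-values from limma, whose version is not given; the t and B scores the authors deposited beside them were not used. Groups came from the labels. Genes with a mean of at least 1 TPM over the libraries compared were tested on log2(TPM + 1) with limma 3.58.1 (R 4.3.3, trended moderated variances, two-sided) in each arm alone and, for the difference between arms, over all 12 libraries, with Benjamini-Hochberg adjustment over all genes. Fold changes on this scale understate the change of low genes. Percent changes are ratios of mean TPM. Intervals are 95% intervals of the fit. In the table, 27 rows named as dates and 2 with a repeated symbol are no members. Alternatives were pseudocount 0.1, no filter, a mean of at least 5 TPM, median-ratio scaling, quantile normalization, no variance trend, the replicate number as a block, 1 fit of 4 groups, an adjusted p of 0.01 and each library left out.

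The members, lists and tests were chosen with earlier results of these data known. Values per library are given for SREBF1, SREBF2, INSIG1 and members that passed a test, and for SQLE, EBP, FDFT1, FASN, ACLY and ABCG1, which were added after their values were seen; other lipid genes are named where called, at most 4 per list and comparison by size of change. Gene positions are from GENCODE 29 (GRCh38) and promoters from RefSeq (GRCh38.p14).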

Additional observations from a re-analysis of the deposited data

Results flagged for a closer look

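For 3 members the effect differed between the arms by the test of the difference (CTNNB1 effect minus shAPC effect, limma, adjusted over all genes): SCD at 0.75 (adjusted p = 0.00042), ELOVL6 at 0.45 (0.0034) and HMGCS1 at 0.35 (0.025) on the log2 scale. The same test passed for 3 other lipid genes, DGAT2 at 0.46 (adjusted p = 0.010), TMEM97 at 0.29 (0.0094) and ME1 at -0.48 (0.0010). It also passed for APC, the target of the hairpin, at 1.53 (adjusted p = 1.2e-05), and for AXIN2, which rose more with shAPC, at -0.56 (0.00057). Vector, collection day and doxycycline differ between the arms, and their part was not tested.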

How the results depend on the processing

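The calls of TM7SF2 in both arms and of SCD and ELOVL6 with shAPC and in the difference between the arms held in every alternative tried. The sign of the members' median depended on the scaling in all 3 comparisons. Counts of genes and members below are of those that passed the test, also for positive and negative differences. Median-ratio scaling gave 1380 genes (11.9%) and 2 members lower with CTNNB1, and 1359 genes (11.5%) and 5 members higher with shAPC. For the difference it gave 793 genes positive (6.75%), 650 negative (5.54%), 2 members negative and a members' median of -0.0340. Quantile normalization gave 1199 genes (10.3%) and 1 member lower with CTNNB1, and 1339 genes (11.3%) and 7 members higher with shAPC. For the difference it gave 792 genes positive (6.75%), 610 negative (5.2%), 2 members negative and a members' median of -0.0588. With shAPC, 3 members fell without the filter (6.62% of all genes) and 3 without the variance trend (11.8%). In the fit of all 4 groups, 2 members rose with shAPC (8.53% of all genes). At an adjusted p under 0.01, 802 genes rose and 451 fell with CTNNB1, 397 rose and 754 fell with shAPC (2 members lower), and 501 differences were positive and 127 negative. With each library left out in turn, CTNNB1 gave 976 to 2084 genes higher, 503 to 1151 lower, 1 to 2 members higher and 0 to 1 lower; shAPC gave 550 to 853, 909 to 1577, 1 to 2 and 2 to 5; and the difference gave 797 to 1835 positive and 198 to 332 negative genes. With replicate number as a block, 1 member fell with CTNNB1 (EBP, adjusted p = 0.035), of 2895 calls in place of 2730. With shAPC 1153 genes and 2 members fell, of 1767 calls in place of 2615. Pairing was looked at in the deviations of log2(TPM + 1) from the mean of the group, over 11741 genes. In these deviations, same-numbered libraries correlated at 0.209, 0.0757 and 0.121 in the overexpression arm and at -0.138, 0.00247 and -0.21 in the knockdown arm. Each CTNNB1 library correlated best with its own number, while GFP library 2 was at 0.076 with CTNNB1 library 3 and 0.0757 with its own number. The labels name no pairs, and the numbers were not taken as pairs in either arm. A pairing in the overexpression arm cannot be settled from these values. The smallest change of a member that passed in an arm was -0.23 on the log2 scale, and TPM do not show how much depth limits smaller ones.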
